A study of Mus musculus with 12 samples.

Results

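Wnt signalling was followed in fibroblasts through 53 genes of the count table, out of 56941 genes in all. The rule took gene symbols and no measured value: every numbered Wnt, Fzd, Sfrp, Dkk and Rspo gene, together with Axin2, Lef1, Tcf7, Lrp5, Lrp6, Wif1, Nkd1, Nkd2, Notum, Ror1 and Ror2. One of the 53, Fzd10os, is a noncoding transcript that the symbol pattern took in. The set itself was chosen with earlier results of these data known. RNA was sequenced from 3T3-L1, an immortal line of mouse embryonic fibroblasts that can be turned into adipocytes in culture, in 4 conditions of 3 libraries each. All cells were wild type, all libraries carried one batch label, and the exposure lasted 24 hours. Control cells had vehicle as their treatment label, and their library names read untreated. The second condition, IL-4/13, combined IL-4 (50 ng/mL) with IL-13 (50 ng/mL). The third, Inf, was an inflammatory cocktail in which IL-1β was given at 0.5 ng/mL, TNF-α at 20 ng/mL and IL-17A at 50 ng/mL. The fourth, IL-4/13 + Inf, held all these cytokines. A single cell line was used, and nothing in the labels says whether the 3 libraries of a condition came from separate cultures, so p-values measure the spread between these libraries, which may be technical.

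The deposited values were raw counts, between 13446005 and 20775769 per library. Among Inf libraries, replicate 3 stood apart: over all genes its counts differed from those of the other two by a chi-square of 8.05 and 8.35 per degree of freedom, against 2.25 to 4.57 in every other pair of libraries of one condition. Where a call given below changed without that library, the value without it is given. All 9 fibroblast markers examined passed the filter, with a summed level of 14630 to 16690 CPM in control cells, 12640 to 13310 with IL-4/13, 12640 to 13660 with Inf and 10620 to 10870 with IL-4/13 + Inf. The adipocyte markers Adipoq and Plin1 never exceeded 1 count and Lep had none, while 3 of 7 adipocyte markers passed. The summed level of the 7 was 31.82 to 37.6 CPM in control and 38.03 to 44.25 with IL-4/13. It was 38.21 to 42.26 CPM with Inf and 30.07 to 33.47 with IL-4/13 + Inf. The macrophage markers Ptprc and Adgre1 reached at most 5 counts and 1 count, but 4 of the 6 macrophage markers passed. The summed level of the 6 was 18.0 to 21.7 CPM in control and 22.3 to 24.7 with IL-4/13. It was 44.4 to 57.7 CPM with Inf and 42.1 to 48.9 with IL-4/13 + Inf. By the rule given below, 2 were called higher and 0 lower with Inf against control. The same numbers were called when Inf was added to IL-4/13. Of all tested genes, 16.3% and 13.3% were called higher in these comparisons. The part of these shifts in the results below was not tested.

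In the Wnt pathway, secreted Wnt ligands bind a Frizzled receptor together with the co-receptor LRP5 or LRP6, which spares β-catenin from destruction and lets it act with TCF and LEF factors on target genes such as Axin2. Some ligands, Wnt5a among them, act mainly through β-catenin-independent branches with Ror receptors. R-spondins raise the amount of Frizzled at the cell surface, whereas Dickkopf proteins, secreted Frizzled-related proteins, Wif1 and the esterase Notum restrain ligands or co-receptors. In skin, the pathway is known for its part in dermal fibroblast identity and hair follicle formation, and in 3T3-L1 cells for holding back adipogenesis.

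Levels are given as CPM, which are counts scaled to a common library size by edgeR's TMM factors. A gene was called higher or lower in a comparison at a Benjamini-Hochberg adjusted p below 0.05, by the quasi-likelihood test of edgeR, and a log2 fold change beyond 0.25. Values after ± are the SE of a log2 fold change or the SD of 3 libraries, as stated. Statements that conditions overlap or lie apart describe 3 libraries each. The share of all tested genes that separate in the same way was not worked out. In bulk RNA, fewer cells expressing a gene and less RNA per cell cannot be told apart.

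Of the 53 genes, 20 passed the filter on low counts and were tested, among 14810 genes tested in all. These were 3 of 19 ligands (Wnt5a, Wnt6, Wnt9a), 2 of 4 R-spondins (Rspo2, Rspo3), 7 of 10 Frizzled receptors (Fzd1, Fzd2, Fzd3, Fzd4, Fzd5, Fzd7, Fzd8), both co-receptors (Lrp5, Lrp6), both Ror receptors (Ror1, Ror2), 2 of 10 secreted antagonists (Sfrp2, Dkk3) and 2 of 5 intracellular feedback genes or transcription factors (Axin2, Lef1). In 16 of the 20, every library of every condition met the filter's level of 0.599 CPM. The other 4 were Axin2, Wnt6, Rspo2 and Dkk3. Rspo2 met it throughout Inf and IL-4/13 + Inf, Dkk3 throughout control and IL-4/13, and Wnt6 throughout all conditions but IL-4/13. Rspo2, Dkk3 and Wnt6 thus entered the test through the conditions where they were high. Axin2 met it throughout no condition.

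No count was found in any library for 10 genes: Wnt2, Wnt3a, Wnt8b, Rspo1, Rspo4, Fzd6, Fzd10, Fzd10os, Dkk1 and Dkk4. A further 23 had counts but did not pass. The most counted of these were the ligands Wnt10b and Wnt5b, with 79 and 66 counts over all 12 libraries. Wnt2b had 50, the receptor Fzd9 had 49, the transcription factor Tcf7 had 46 and the ligand Wnt4 had 38. Nkd2, an inhibitor acting on Dishevelled, had 26, as did the antagonist Dkk2, and Wnt10a had 25. The others, Wnt1, Wnt3, Wnt7a, Wnt7b, Wnt8a, Wnt9b, Wnt11, Wnt16, Nkd1, Notum, Sfrp1, Sfrp4, Sfrp5 and Wif1, had at most 18 counts each in total. Such genes were left out of the main test, and each is given as counts only. A fit without the filter tested 43 members. It called 8 lower in Inf against control, of which 7 were shared with the main fit. In IL-4/13 + Inf against control it called 11 lower, of which 10 were shared.

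**Figure D1:**
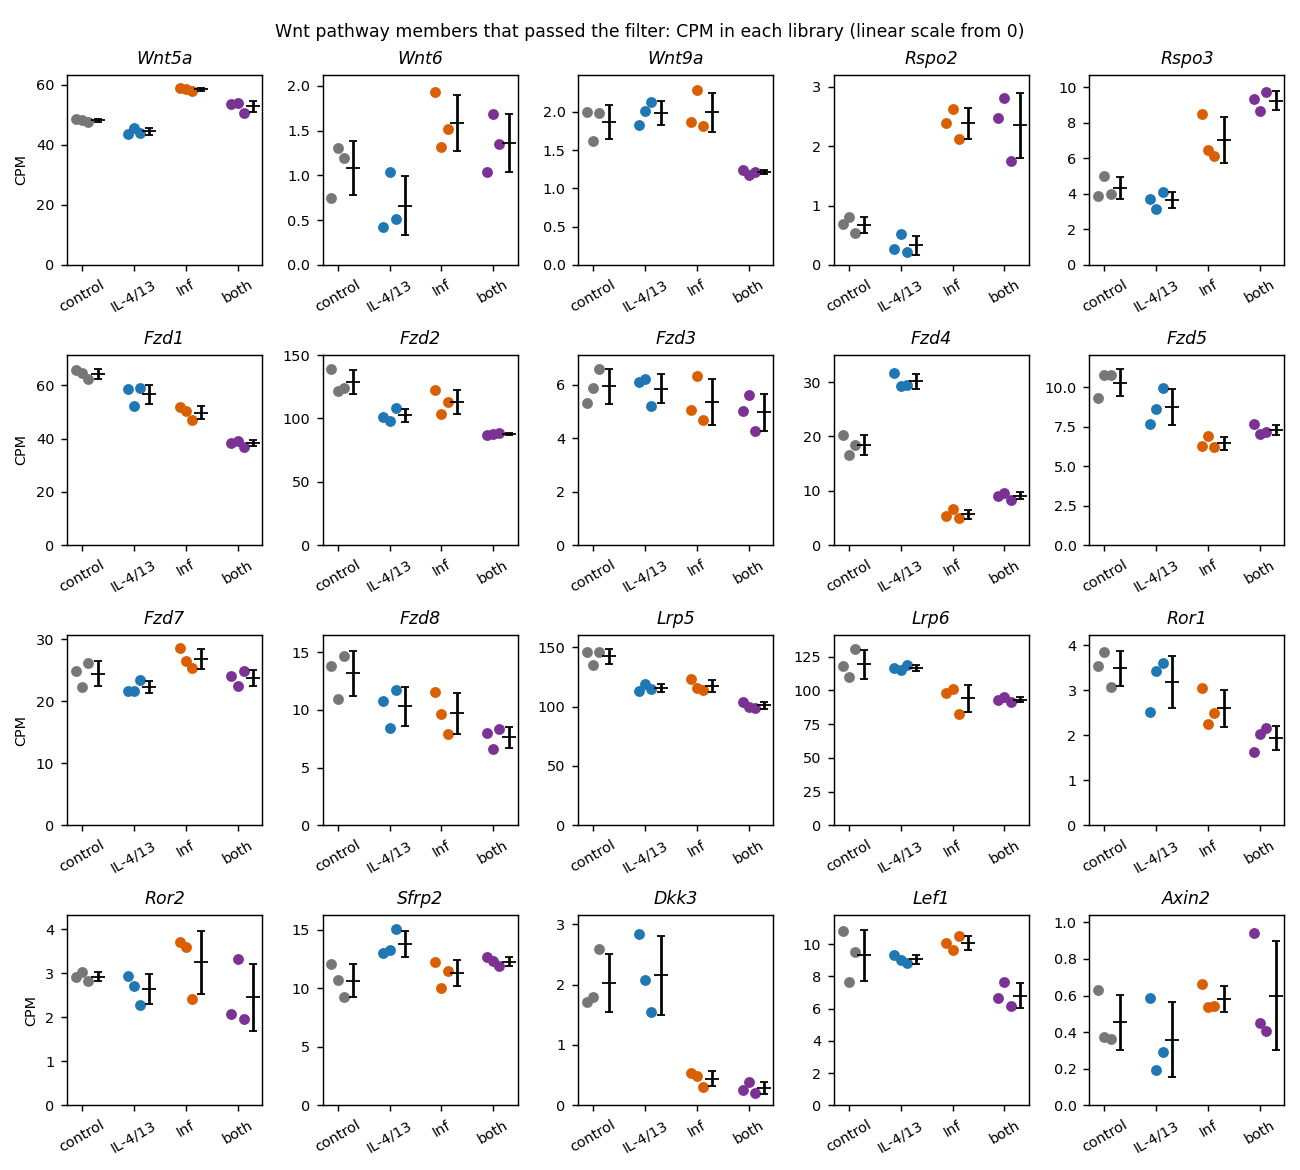
Level of each of the 20 tested Wnt pathway genes in each library. The vertical axis is CPM on a linear scale from 0, each point is a library (both stands for IL-4/13 + Inf), and the bar beside the points is the mean and SD of 3 libraries. The 4 conditions do not overlap for Fzd4, Fzd1 or Wnt5a, and Rspo2 and Rspo3 stand higher, and Dkk3 lower, in every library that received Inf. How many of all tested genes separate in these ways was not worked out.

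Per length, the ordering was led by receptors and co-receptors. The length used was that of the longest annotated transcript of each gene. Which transcript was expressed was not examined, so close ranks may depend on this choice. In control, Fzd2 stood first at 35.1 CPM per kb of transcript, ahead of Lrp5 at 16.0, Fzd1 at 15.3 and Lrp6 at 12.8. The ligand Wnt5a followed at 6.86 CPM per kb, Fzd7 at 5.40 and the antagonist Sfrp2 at 5.33. Wnt5a was thus the ligand with the highest level per length, since Wnt9a read 0.561 and Wnt6 0.523 CPM per kb. Axin2, a target gene and feedback inhibitor of the β-catenin branch, was last in control at 0.107 CPM per kb. Fzd2 remained first in all 4 conditions.

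Across the 5 pairwise comparisons and the interaction, 16 of the 20 tested members (80%) were called at least once, beside 43.4% of all tested genes. The exceptions were Axin2, Fzd3, Fzd7 and Ror2. With Inf against control, 3 members (15% of those tested) were called higher and 7 (35%) lower, where 16.3% of all tested genes were called higher and 15.3% lower (31.6% in all). The median log2 fold change of the 20 members was -0.0322, beside 0.00735 over all tested genes. With IL-4/13 against control, 2 (10%) were higher and 2 (10%) lower, against 2.78% and 2.57% of all genes (5.35% in either direction), with a median of -0.14 beside -0.00144. With IL-4/13 + Inf against control, 2 (10%) were higher and 10 (50%) lower, against 13.4% and 11.5% (24.9% in all), with a median of -0.403 beside -0.000842. When IL-4/13 was added to Inf, 2 (10%) were higher and 3 (15%) lower, against 7.55% and 7.00% (14.6% in all), with a median of -0.194 beside -0.00982. When Inf was added to IL-4/13, 3 (15%) were higher and 8 (40%) lower, against 13.3% and 11.0% (24.3% in all), with a median of -0.229 beside -0.00205. The shares called higher with Inf and with all cytokines were near those of all genes. These comparisons share libraries and are not independent counts. Among the members counted, Rspo2, Dkk3 and Wnt6 entered the test through the conditions where they were high. Since the members were chosen with earlier results of these data known, their shares describe the set and do not test it.

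Among the ligands, Wnt5a was the only one called higher with Inf against control. It read 48.4, 48.2 and 47.5 CPM in the control libraries, 43.6, 45.6 and 43.96 in those with IL-4/13, 58.95, 58.5 and 57.8 in those with Inf and 53.6, 53.96 and 50.6 in those with IL-4/13 + Inf. The 4 conditions did not overlap, with Inf highest and IL-4/13 lowest. Wnt5a rose with Inf against control by a factor of 1.22 (log2 fold change 0.28 ± 0.057, adjusted p = 0.000183, SE here and below for log2 values). The difference on adding Inf to IL-4/13 was similar in size but fell just under the limit of 0.25 (0.2498 ± 0.059, adjusted p = 0.00113), and it passed that limit in 8 of the 12 fits that left out 1 library, among them the fit without Inf replicate 3 (0.2553, adjusted p = 0.000432).

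Wnt6 and Wnt9a, ligands at low levels, were each called in 1 comparison, that of IL-4/13 + Inf against IL-4/13. Wnt6 read 0.743, 1.3 and 1.2 CPM in the control libraries, 0.429, 1.04 and 0.514 in those with IL-4/13, 1.93, 1.31 and 1.52 in those with Inf and 1.04, 1.69 and 1.35 in those with IL-4/13 + Inf. The reads behind them numbered 13, 21 and 20 in the control libraries, 8, 16 and 7 in those with IL-4/13, 29, 27 and 25 in those with Inf and 21, 30 and 20 in those with IL-4/13 + Inf. Wnt6 was higher with IL-4/13 + Inf than with IL-4/13 (1.04 ± 0.39, adjusted p = 0.0381), with the lowest library of the former barely above the highest of the latter. IL-4/13 was also the only condition in which not every Wnt6 library met the filter's level. The call was lost with DESeq2 (adjusted p = 0.0527) and without IL-4/13 replicate 1 (adjusted p = 0.2), IL-4/13 replicate 3, or IL-4/13 + Inf replicate 2 or 3.

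Wnt9a read 2, 1.61 and 1.98 CPM in the control libraries, 1.82, 2.01 and 2.13 in those with IL-4/13, 1.86, 2.29 and 1.82 in those with Inf and 1.24, 1.18 and 1.22 in those with IL-4/13 + Inf. Its libraries with all cytokines lay below those of the other 3 conditions, which overlapped one another. Wnt9a was lower with IL-4/13 + Inf than with IL-4/13 (-0.70 ± 0.27, adjusted p = 0.0459). This call did not hold with DESeq2 (adjusted p = 0.0802) or with a block for replicate number (adjusted p = 0.0607). It was lost in 10 of the 12 fits that left out 1 library, with adjusted p values up to 0.114 (0.0522 without Inf replicate 3). The difference from Inf did not pass the test (-0.72 ± 0.27, adjusted p = 0.0516).

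Both tested R-spondins were called higher with Inf, and Rspo2 had the largest rise of the tested members. It met the filter's level throughout only in the conditions with Inf, where it was high. Rspo2, which binds LGR receptors and the ubiquitin ligases ZNRF3 and RNF43, read 0.686, 0.806 and 0.54 CPM in the control libraries, 0.268, 0.518 and 0.221 in those with IL-4/13, 2.39, 2.63 and 2.12 in those with Inf and 2.48, 2.81 and 1.75 in those with IL-4/13 + Inf. The reads behind these levels were 12, 13 and 9 in the control libraries, 5, 8 and 3 in those with IL-4/13, 36, 54 and 35 in those with Inf and 50, 50 and 26 in those with IL-4/13 + Inf. Every library with Inf lay above every library without it, while Inf and IL-4/13 + Inf overlapped. Rspo2 rose by a factor of 3.51 with Inf against control (1.81 ± 0.32, adjusted p = 3.06e-05) and by a factor of 6.92 when Inf was added to IL-4/13 (2.79 ± 0.37, adjusted p = 3.95e-07). The libraries with IL-4/13 alone lay below all control libraries, yet the difference was not called (-0.995 ± 0.46, adjusted p = 0.203).

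Rspo3, of the same family, read 3.89, 5.02 and 4.02 CPM in the control libraries, 3.7, 3.17 and 4.12 in those with IL-4/13, 8.51, 6.48 and 6.12 in those with Inf and 9.37, 8.66 and 9.72 in those with IL-4/13 + Inf. Control and IL-4/13 overlapped, Inf lay above both, and IL-4/13 + Inf lay above all other libraries. Rspo3 rose with Inf against control (0.70 ± 0.16, adjusted p = 0.000702) and with Inf added to IL-4/13 (1.34 ± 0.16, adjusted p = 6.52e-08), and by a factor of 2.15 with IL-4/13 + Inf against control (1.10 ± 0.16, adjusted p = 9.45e-07). Rspo3 was also called higher with IL-4/13 + Inf than with Inf (0.40 ± 0.14, adjusted p = 0.0455). That call was lost with DESeq2 (adjusted p = 0.0814), in the fit with a block for replicate number (adjusted p = 0.0621) and in 6 of the 12 fits that left out 1 library, among them the fit without Inf replicate 3 (log2 fold change 0.32, adjusted p = 0.158).

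Fzd4, a Frizzled receptor that also binds Norrin, was called in each of the 5 pairwise comparisons, more than any other member. It read 20.2, 16.6 and 18.4 CPM in the control libraries, 31.7, 29.2 and 29.6 in those with IL-4/13, 5.38, 6.58 and 4.97 in those with Inf and 9.12, 9.67 and 8.37 in those with IL-4/13 + Inf. The 4 conditions did not overlap: IL-4/13 was highest, then control, then IL-4/13 + Inf, then Inf. With IL-4/13 against control, Fzd4 rose by a factor of 1.64 (0.71 ± 0.10, adjusted p = 3.69e-06). Against the same control libraries, Inf lowered Fzd4 to 0.309 of the control level (-1.69 ± 0.12, adjusted p = 2.46e-13). Fzd4 rose when IL-4/13 was added to Inf (0.67 ± 0.13, adjusted p = 0.000173) and stayed below control in IL-4/13 + Inf (-1.02 ± 0.11, adjusted p = 3.82e-09). The response to IL-4/13 with Inf differed from that without Inf by -0.041 on the log2 scale, with a 95% interval of -0.37 to 0.29 (edgeR's interaction test, adjusted p = 0.945).

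In all, 4 Frizzled receptors were called lower with Inf against control, namely Fzd1, Fzd4, Fzd5 and Fzd8. The RefSeq promoter table of GRCm38.p6 held an entry for 3 of these, and the 250 bases before each start are shown so that the stretches ahead of genes with a shared direction can be read side by side. Fzd1 lies at chr5:4758217-4758466 on the minus strand, Fzd4 at chr7:89404116-89404365 on the plus strand and Fzd5 at chr1:64737751-64738000 on the minus strand, each written 5′ to 3′ on its own strand. Capitals mark a match to the kappaB motif, the only match among those searched.
Fzd1: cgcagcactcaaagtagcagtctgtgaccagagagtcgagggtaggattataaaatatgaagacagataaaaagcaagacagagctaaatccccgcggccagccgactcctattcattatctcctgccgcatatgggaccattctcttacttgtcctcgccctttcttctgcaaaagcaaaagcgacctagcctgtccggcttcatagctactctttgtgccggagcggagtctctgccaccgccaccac
Fzd4: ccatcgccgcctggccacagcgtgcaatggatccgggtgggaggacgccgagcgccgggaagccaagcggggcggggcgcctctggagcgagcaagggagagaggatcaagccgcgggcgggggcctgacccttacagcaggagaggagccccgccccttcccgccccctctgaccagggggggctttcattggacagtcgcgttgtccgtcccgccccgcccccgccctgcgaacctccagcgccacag
Fzd5: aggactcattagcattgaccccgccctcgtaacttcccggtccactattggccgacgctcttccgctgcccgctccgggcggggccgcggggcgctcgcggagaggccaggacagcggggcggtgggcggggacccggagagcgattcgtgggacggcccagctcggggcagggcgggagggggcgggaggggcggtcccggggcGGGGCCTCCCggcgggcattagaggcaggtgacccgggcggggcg
The motifs searched on both strands, over 250 bases before to 50 bases after the start, were CTTTGAT (the TCF/LEF core), TTC and GAA set 4 or 3 bases apart (STAT), TGANTCA (AP-1) and the kappaB motif. They occurred in 3.73%, 6.95%, 8.30%, 7.81% and 8.46% of 32851 promoters. The Fzd5 match spans bases 45 to 36 before the start. The Fzd4 and Fzd5 windows are rich in G and C, at 72.7% and 75.7%, and the Fzd1 window holds 54.0%, beside a median of 52.7% over all promoters. Of the 20 tested members, 11 had a promoter in the table, and matches outside these 3 were a kappaB motif at Sfrp2, TTC and GAA 4 bases apart at 1 of the Lef1 promoters and TGANTCA at Ror2. A match is a run of letters and not a measured binding site.

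Fzd1 fell with either step that added Inf. It read 65.7, 64.8 and 62.2 CPM in the control libraries, 58.6, 52.4 and 58.8 in those with IL-4/13, 51.8, 50.5 and 46.9 in those with Inf and 38.4, 39.2 and 36.98 in those with IL-4/13 + Inf. The conditions formed 4 separate steps from control down to IL-4/13 + Inf. Fzd1 fell with Inf against control (-0.37 ± 0.062, adjusted p = 1.29e-05) and with Inf added to IL-4/13 (-0.57 ± 0.064, adjusted p = 1.8e-08), and it fell to 0.595 of the control level with IL-4/13 + Inf (-0.75 ± 0.063, adjusted p = 2.86e-11). Adding IL-4/13 to Inf lowered Fzd1 (-0.38 ± 0.064, adjusted p = 4.45e-05), while the difference between IL-4/13 and control did not pass the test (-0.18 ± 0.062, adjusted p = 0.0631).

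Fzd2, the receptor with the highest level, read 139, 122 and 124 CPM in the control libraries, 101, 97.8 and 108 in those with IL-4/13, 122, 104 and 113 in those with Inf and 87.03, 87.5 and 88.9 in those with IL-4/13 + Inf. Inf overlapped with control, and both conditions with IL-4/13 lay below control. Fzd2 fell with IL-4/13 against control (-0.33 ± 0.059, adjusted p = 0.000287) and with IL-4/13 added to Inf (-0.36 ± 0.059, adjusted p = 3.14e-05). The differences with Inf were not called, since their size was under the limit of 0.25, both against control (-0.19 ± 0.058, adjusted p = 0.0108) and on addition to IL-4/13 (-0.22 ± 0.06, adjusted p = 0.00442).

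Fzd5 and Fzd8 were lower with Inf as well. Fzd5 read 9.31, 10.8 and 10.7 CPM in the control libraries, 7.66, 8.62 and 9.92 in those with IL-4/13, 6.25, 6.92 and 6.18 in those with Inf and 7.64, 7.03 and 7.15 in those with IL-4/13 + Inf. Both conditions with Inf lay below control. Fzd5 fell with Inf against control (-0.67 ± 0.13, adjusted p = 9.93e-05) and with all cytokines (-0.50 ± 0.13, adjusted p = 0.00257), but the difference on adding Inf to IL-4/13 was not called (-0.25 ± 0.13, adjusted p = 0.147).

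Fzd8 read 13.8, 10.9 and 14.7 CPM in the control libraries, 10.8, 8.42 and 11.7 in those with IL-4/13, 11.5, 9.6 and 7.94 in those with Inf and 7.98, 6.58 and 8.3 in those with IL-4/13 + Inf. The libraries with all cytokines lay below those of control and IL-4/13, while Inf overlapped with control. The clearest fall of Fzd8 was with IL-4/13 + Inf against control (-0.79 ± 0.15, adjusted p = 7.52e-05). The fall with Inf against control (-0.45 ± 0.14, adjusted p = 0.0117) was lost without control replicate 1 (adjusted p = 0.0528), control replicate 3 (0.0741) or Inf replicate 3 (0.0642). The fall with Inf added to IL-4/13 (-0.43 ± 0.15, adjusted p = 0.027) was lost in 3 fits, without IL-4/13 replicate 1 or 3 or without IL-4/13 + Inf replicate 2, with adjusted p values up to 0.141. The difference on adding IL-4/13 to Inf was not called (-0.34 ± 0.15, adjusted p = 0.106), but it was called lower without Inf replicate 3 (-0.46, adjusted p = 0.0248).

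Fzd3 and Fzd7 were not called in any comparison. Fzd7 spanned 21.7 to 28.6 CPM over the 12 libraries and Fzd3, a planar polarity receptor, 4.25 to 6.6. For Inf against control, the 95% interval of the log2 difference was -0.036 to 0.30 for Fzd7 and -0.46 to 0.19 for Fzd3.

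The share of Fzd4 among the Frizzled receptors differed between conditions. As a share of the summed CPM per kb of the 7 tested receptors, Fzd4 took 4.36% ± 0.224 in control cells, 8.28% ± 0.493 with IL-4/13, 1.61% ± 0.292 with Inf and 3.18% ± 0.245 with all cytokines (SD, n = 3). Fzd2 held between 51.5% and 58.8% in every condition. In IL-4/13, the mean Fzd4 level per kb was next to that of Fzd7, at 4.49 ± 0.202 and 4.93 ± 0.228 CPM per kb, and in Inf it was below Fzd5, at 0.840 ± 0.124 and 0.933 ± 0.0586. The latter pair differed by less than the SD of Fzd4.

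**Figure D2:**
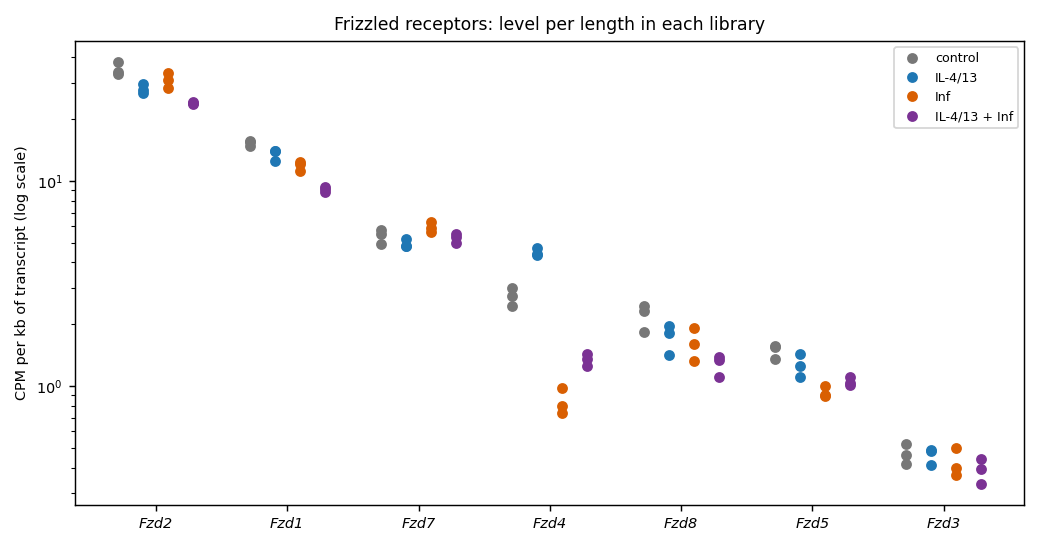
Frizzled receptor levels per length. The vertical axis is CPM per kb of the longest annotated transcript on a log scale, each point is 1 library, and colours mark the 4 conditions. Fzd2 is first in each, and Fzd4 moves most between conditions, with a mean of 4.49 CPM per kb in IL-4/13 and 0.840 in Inf.

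Both co-receptors were called lower with Inf and with all cytokines against control, and Lrp5 also with IL-4/13. Lrp5 read 147, 135 and 146 CPM in the control libraries, 113, 119 and 115 in those with IL-4/13, 123, 116 and 114 in those with Inf and 104, 100.1 and 99.1 in those with IL-4/13 + Inf. Each treated condition lay below control, and IL-4/13 + Inf lay below all others. Against control, Lrp5 fell with IL-4/13 (-0.30 ± 0.049, adjusted p = 7.98e-05), with Inf (-0.28 ± 0.049, adjusted p = 2.84e-05) and with all cytokines (-0.49 ± 0.049, adjusted p = 1.16e-09). Adding either cytokine group to the other gave differences that were too small to be called, at -0.22 for IL-4/13 added to Inf and -0.20 for Inf added to IL-4/13.

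Lrp6 read 118, 109.5 and 131 CPM in the control libraries, 116, 115 and 119 in those with IL-4/13, 98.03, 101 and 82.7 in those with Inf and 93.03, 95.4 and 91.04 in those with IL-4/13 + Inf. Both conditions with Inf lay below both without it. Lrp6 fell with Inf against control (-0.34 ± 0.065, adjusted p = 0.000114), with all cytokines (-0.36 ± 0.065, adjusted p = 8.24e-05) and with Inf added to IL-4/13 (-0.32 ± 0.065, adjusted p = 0.000328). For IL-4/13 against control, Lrp6 differed by -0.035 with a 95% interval of -0.17 to 0.10, and for IL-4/13 added to Inf by -0.014 with an interval of -0.15 to 0.12. Whether Lrp5 and Lrp6 differed from each other in their response was not tested.

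Ror1, a receptor tyrosine kinase for Wnt5a, read 3.54, 3.85 and 3.06 CPM in the control libraries, 2.52, 3.43 and 3.6 in those with IL-4/13, 3.06, 2.24 and 2.49 in those with Inf and 1.64, 2.02 and 2.16 in those with IL-4/13 + Inf. The libraries with all cytokines lay below those of every other condition. Ror1 fell with IL-4/13 + Inf against control (-0.85 ± 0.23, adjusted p = 0.00333) and against IL-4/13 (-0.71 ± 0.23, adjusted p = 0.0168). The second call was lost without IL-4/13 replicate 2 or 3 or without IL-4/13 + Inf replicate 1, with adjusted p values up to 0.0939. Ror2, its paralog, spanned 1.96 to 3.72 CPM and was not called, also for IL-4/13 + Inf against control (-0.25 ± 0.23, adjusted p = 0.471).

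Dkk3, a divergent member of the Dickkopf family of secreted antagonists, had the largest fall of the tested members. Dkk3 met the filter's level throughout only in the conditions without Inf, where it was high. It read 1.71, 1.8 and 2.58 CPM in the control libraries, 2.84, 2.07 and 1.54 in those with IL-4/13, 0.532, 0.487 and 0.303 in those with Inf and 0.248, 0.394 and 0.203 in those with IL-4/13 + Inf. The read counts were 30, 29 and 43 in the control libraries, 53, 32 and 21 in those with IL-4/13, 8, 10 and 5 in those with Inf and 5, 7 and 3 in those with IL-4/13 + Inf. Every library with Inf lay below every library without it, while control overlapped with IL-4/13 and Inf overlapped with IL-4/13 + Inf. Dkk3 fell to 0.22 of the control level with Inf (-2.18 ± 0.38, adjusted p = 1.99e-05) and to 0.133 of the IL-4/13 level when Inf was added (-2.91 ± 0.41, adjusted p = 8.42e-07). With all cytokines it fell to 0.143 of the control level (-2.81 ± 0.41, adjusted p = 1.51e-06), and the difference from Inf was not called (-0.62 ± 0.52, adjusted p = 0.442). The related antagonist Dkk2 did not pass the filter, with 10 counts summed over the control libraries, 14 over IL-4/13, 0 over Inf and 2 over IL-4/13 + Inf.

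Sfrp2, which binds Wnt ligands outside the cell, read 12.1, 10.7 and 9.24 CPM in the control libraries, 13.1, 13.3 and 15.1 in those with IL-4/13, 12.3, 10.1 and 11.5 in those with Inf and 12.7, 12.3 and 11.9 in those with IL-4/13 + Inf. The IL-4/13 libraries lay above those of all other conditions. Sfrp2 rose with IL-4/13 against control (0.36 ± 0.11, adjusted p = 0.0436). The call was lost with DESeq2 (adjusted p = 0.0633), in the fit with a block for replicate number (adjusted p = 0.0555) and in 8 of the 12 fits that left out 1 library, with adjusted p values up to 0.244. With Inf present, the difference on adding IL-4/13 was not called (0.13 ± 0.11, adjusted p = 0.464).

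Lef1, a transcription factor through which β-catenin acts, read 10.8, 7.63 and 9.48 CPM in the control libraries, 9.32, 9.01 and 8.82 in those with IL-4/13, 10.1, 9.64 and 10.5 in those with Inf and 6.64, 7.64 and 6.14 in those with IL-4/13 + Inf. IL-4/13 + Inf lay below IL-4/13 and below Inf and overlapped with control, through control replicate 2. Lef1 fell when IL-4/13 was added to Inf (-0.56 ± 0.13, adjusted p = 0.00209), when Inf was added to IL-4/13 (-0.41 ± 0.14, adjusted p = 0.019) and with all cytokines against control (-0.45 ± 0.13, adjusted p = 0.00893). The last was lost without control replicate 1 (adjusted p = 0.106) or IL-4/13 + Inf replicate 3 (0.0509), and the second was lost in 3 fits that left out 1 library, without IL-4/13 replicate 1 or without IL-4/13 + Inf replicate 1 or 3 (adjusted p up to 0.0884). Neither IL-4/13 alone (-0.041) nor Inf alone (0.11) gave a call. The difference between the responses to IL-4/13 with and without Inf did not pass its test (-0.52 ± 0.18, adjusted p = 0.139).

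Axin2, the target gene most often read as a measure of β-catenin activity, lay between 0.194 and 0.942 CPM. Its reads numbered 11, 6 and 6 in the control libraries, 11, 3 and 4 in those with IL-4/13, 10, 11 and 9 in those with Inf and 19, 8 and 6 in those with IL-4/13 + Inf. At this depth no difference was detectable, and the 95% interval for Inf against control, -0.69 to 1.36 on the log2 scale, holds both a fall and a more than 2-fold rise. Tcf7, a partner of β-catenin like Lef1, did not pass the filter, with 18 counts summed over control, 16 over IL-4/13, 7 over Inf and 5 over the libraries with all cytokines.

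No member passed the test of the interaction, the difference between the responses to IL-4/13 in the presence and absence of Inf, where 3.11% of all tested genes did, 1.52% higher and 1.59% lower. DESeq2 also called 0. At an unadjusted p below 0.05 there were 5. The share of all tested genes below that limit was not taken, so this count has nothing to be set against. The smallest adjusted p by edgeR was 0.139, for Lef1. The median over the members was -0.0364, beside -7.29e-05 over all tested genes.

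Certain comparisons share no library and could be set side by side. The comparison of Inf with control and the addition of Inf to IL-4/13 both ask what Inf does, without and with IL-4/13. Their log2 fold changes had the same sign in 16 of the 20 members, beside 77.9% of all tested genes. Of the 10 members called in the former and 11 in the latter, 7 were called in both and in the same direction, which is 70% and 63.6% of each list. Over all tested genes the shared calls were 60.3% and 78.6% of each list. Rspo2 and Rspo3 were the pair called higher in both, and the 5 called lower in both were Fzd1, Fzd4, Fzd8, Lrp6 and Dkk3. Among these, Rspo2 and Dkk3 entered the test through the conditions where they were high, so their shared calls are not independent of the filter. For IL-4/13, the signs were the same in 15 of 20 members between the comparison with control and that with Inf, beside 66.9% of all tested genes. These shared 2 calls, Fzd4 higher and Fzd2 lower, out of 4 and 5, which is 50% and 40%, beside 57.7% and 21.2% over all tested genes.

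**Figure D3:**
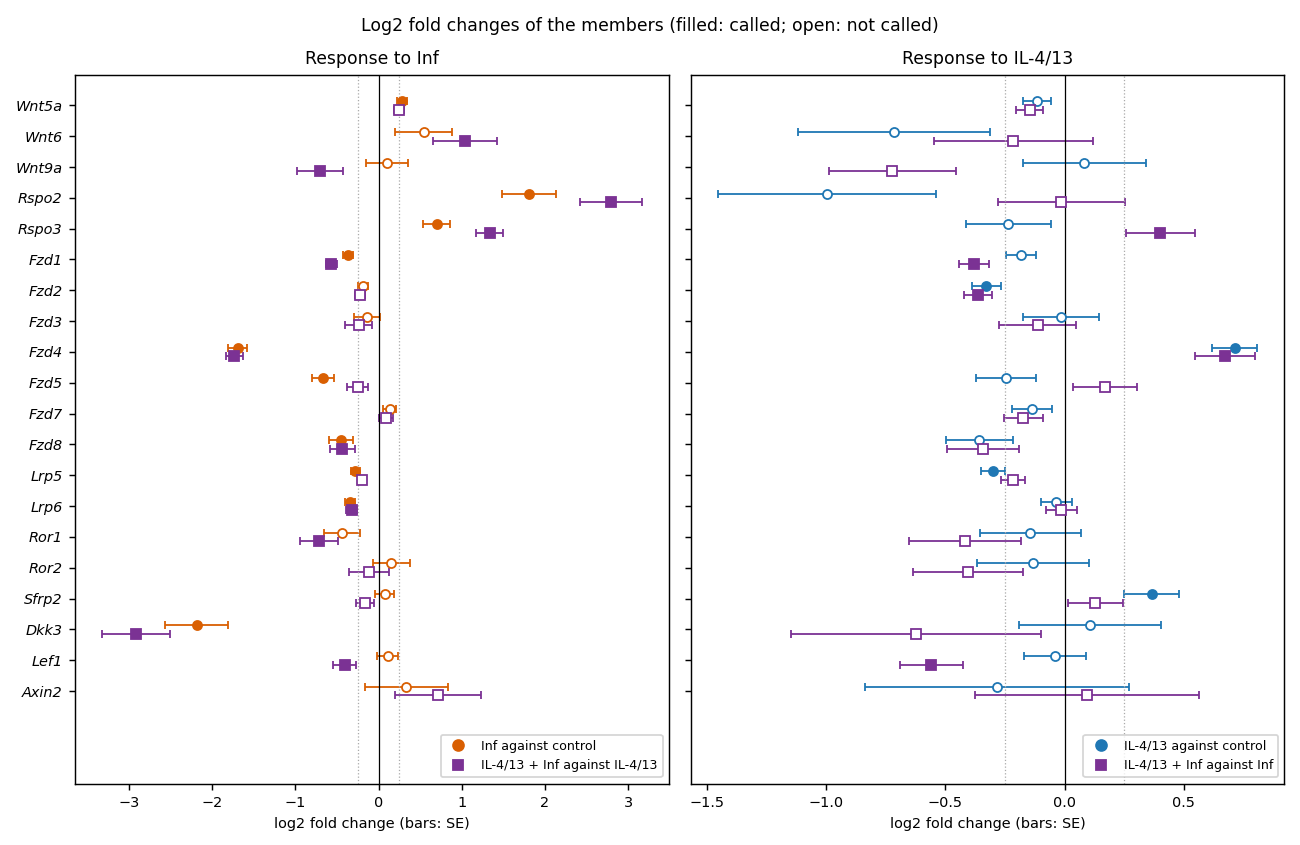
Log2 fold changes of the 20 tested Wnt pathway genes. The left panel shows Inf against control (circles) and its addition to IL-4/13 (squares), the right panel IL-4/13 against control (circles) and its addition to Inf (squares), with bars for the SE and filled symbols for called differences. The horizontal scales differ between panels, and dotted lines mark 0.25 on either side of 0. Fzd4 is called lower in both comparisons on the left and higher in both on the right.

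Beyond the members, 75 other genes of the pathway were examined in 7 lists, and 63 passed the filter. With Inf against control, 8 (12.7%) were called higher and 18 (28.6%) lower, beside 16.3% and 15.3% of all tested genes. With IL-4/13 + Inf against control they were 8 (12.7%) and 21 (33.3%), beside 13.4% and 11.5%. IL-4/13 gave 3 higher (4.76%) and 7 lower (11.1%) against control, beside 2.78% and 2.57%, and 7 higher (11.1%) and 10 lower (15.9%) when added to Inf, beside 7.55% and 7.00%. Inf added to IL-4/13 gave 8 higher (12.7%) and 17 lower (27%), beside 13.3% and 11.0%. The shares called higher with Inf, alone or beside IL-4/13, were near or below those of all genes. These lists, too, were chosen with earlier results of these data known, so their shares are descriptive. By list, Inf against control called 4 higher and 5 lower of 11 tested receptors and binding partners, 1 higher and 4 lower of 13 nuclear factors, 1 higher and 2 lower of 19 destruction complex genes and transducers, and 0 higher and 2 lower of 6 planar polarity genes. It called 1 higher and 1 lower of 3 other antagonists, 1 higher and 3 lower of 9 target genes, and 1 of the 2 ligand secretion genes lower.

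Among the 3 other tested antagonists, 2 passed a log2 fold change of 1. Apcdd1, a membrane-bound inhibitor, stood at 37.3 ± 1.96 CPM in control cells, 29.2 ± 1.04 with IL-4/13, 11.6 ± 0.343 with Inf and 9.998 ± 0.306 with IL-4/13 + Inf (SD, n = 3). It fell with Inf against control (-1.68 ± 0.083, adjusted p = 8.29e-17) and with Inf added to IL-4/13 (-1.55 ± 0.087, adjusted p = 2.25e-15). Draxin, a secreted inhibitor, rose with Inf against control (2.89 ± 0.68, adjusted p = 0.000916). Its reads numbered 2, 0 and 5 in the control libraries, 2, 10 and 3 in those with IL-4/13, 22, 21 and 13 in those with Inf and 9, 6 and 17 in those with IL-4/13 + Inf. Inf was the only condition in which every library met the filter's level, so Draxin entered the test through the condition where it was high.

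Gpc6, a glypican of the cell surface, followed the order seen for Fzd4, with 27.6 ± 1.32 CPM in control cells, 33.8 ± 1.33 with IL-4/13, 11.4 ± 1.58 with Inf and 17.1 ± 0.805 with IL-4/13 + Inf. It rose with IL-4/13 (0.29 ± 0.084, adjusted p = 0.026), fell with Inf (-1.27 ± 0.094, adjusted p = 1.25e-12) and rose when IL-4/13 was added to Inf (0.58 ± 0.10, adjusted p = 4.53e-05). The first of these calls was lost in 5 of the 12 fits that left out 1 library (adjusted p up to 0.114). Of the R-spondin receptors and the ubiquitin ligases they bind to, Lgr4, Lgr6 and Znrf3 were tested, and they are given here after their values were seen. Lgr4 stood at 9.41 ± 0.759 CPM in control and 17.1 ± 1.45 in Inf, a rise that was called (0.86 ± 0.10, adjusted p = 6.09e-08). Lgr6, of the same receptor family, fell from 5.38 ± 0.43 to 3.72 ± 0.409 CPM (-0.54 ± 0.18, adjusted p = 0.0137), a call lost without control replicate 1 (adjusted p = 0.0604) or Inf replicate 2 (0.0609). Znrf3, a ligase that removes Frizzled from the cell surface, fell from 14.4 ± 0.78 to 11.04 ± 1.46 CPM (-0.38 ± 0.11, adjusted p = 0.0072). Lgr5 and Rnf43 did not pass the filter.

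In the nucleus, Tcf7l1, a TCF factor that acts mainly as a repressor, fell in each pairwise comparison. Its means were 73.8 ± 2.35 CPM in control cells, 58.4 ± 0.178 with IL-4/13, 46.1 ± 4.27 with Inf and 33.97 ± 0.244 with IL-4/13 + Inf, and the largest of the falls was with all cytokines (-1.12 ± 0.064, adjusted p = 2.93e-15). Daam2, a formin that binds Dishevelled, fell with Inf against control (-1.37 ± 0.10, adjusted p = 1.74e-12). Dact1, another partner of Dishevelled, fell when IL-4/13 was added to Inf (-1.78 ± 0.42, adjusted p = 0.00197), from 1.82 ± 0.193 to 0.512 ± 0.294 CPM. Every library met the filter's level only in control and in Inf, the conditions with the higher mean levels of Dact1.

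In all, 5 of the 63 genes (7.94%) passed the interaction test, beside 3.11% of all tested genes. Prickle1, a planar polarity gene, stood at 10.2 ± 0.415 CPM in control cells, 9.07 ± 1.01 with IL-4/13, 9.48 ± 0.586 with Inf and 20.8 ± 1.99 with IL-4/13 + Inf, with an interaction called higher (1.30 ± 0.16, adjusted p = 2.49e-06). Ccnd1, a cell cycle gene that many signals besides Wnt induce, stood at 688 ± 23.4 CPM in control cells, 708 ± 3.91 with IL-4/13, 248 ± 15.2 with Inf and 348 ± 14.1 with IL-4/13 + Inf. It fell with Inf (-1.47 ± 0.045, adjusted p = 3.87e-22), and its interaction was called higher (0.45 ± 0.062, adjusted p = 1.98e-05). Ccn5, a matricellular Wnt target, stood at 13.3 ± 1.58 CPM in control cells, 7.2 ± 1.18 with IL-4/13, 29.6 ± 0.821 with Inf and 9.46 ± 1.004 with IL-4/13 + Inf. It rose with Inf (1.16 ± 0.10, adjusted p = 1.22e-10) and fell when IL-4/13 was added to Inf (-1.64 ± 0.11, adjusted p = 8.64e-13), and its interaction was called lower (-0.75 ± 0.17, adjusted p = 0.00604). The other two, Gpc4 and Tle1, had interactions of 0.28 and 0.37. The call of Gpc4 was lost with a block for replicate number (adjusted p = 0.0503) and in 7 of the 12 fits that left out 1 library (adjusted p up to 0.14), and that of Tle1 in 1, without IL-4/13 + Inf replicate 2 (adjusted p = 0.0519).

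**Figure D4:**
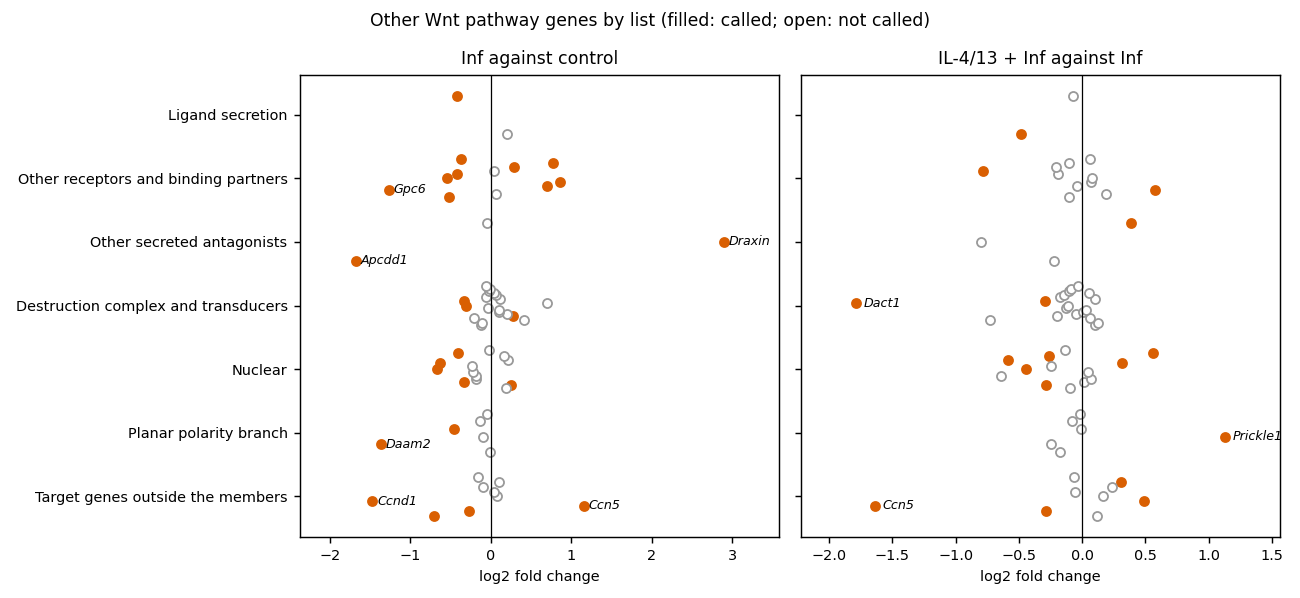
Log2 fold changes of the 63 other tested Wnt pathway genes in 7 lists, for Inf against control (left) and IL-4/13 + Inf against Inf (right). The horizontal axes are log2 fold changes on scales that differ between panels, each point is 1 gene, filled points were called, and genes called with a log2 fold change beyond 1 are named. Draxin, which rests on few reads, is the highest and Apcdd1 the lowest on the left, and Prickle1 and Dact1 hold these places on the right.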

How the data were processed

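The authors made stranded libraries from polyadenylated RNA of 3T3-L1 cells and deposited raw counts, whole numbers of reads per gene without normalization. The submitters' processing notes name STAR, featureCounts and GRCm39. Versions, the annotation and the strand setting are not given in the sources used here. Cytokine doses are those stated in the study. All 12 columns were matched to samples by library name.

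Counts were analysed in R 4.3.3 with edgeR 4.0.16 (low counts removed by filterByExpr with condition as group, at its settings of 10 counts and 15 in total; TMM factors; robust quasi-likelihood fit with 1 term per condition over all 12 libraries) and adjusted by the Benjamini-Hochberg method over 14810 genes within each comparison. The fit estimates 1 spread from 3 libraries in each of 4 conditions. Depth was 13446005 to 20775769 counts per library. In simulated counts in which 195 of 14533 genes differed by 1 on the log2 scale, edgeR recovered 81.5% for IL-4/13 against control, with 11 false calls, and 85.1% when IL-4/13 was added to Inf, with 7. The simulated counts held no effect of Inf and no smaller change, so these rates do not cover the many calls below 1.

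The members and gene lists were chosen with earlier results of these data known. Members called in at least 1 comparison, and reaching a mean of 1 CPM in some condition, are given in every library. Other pathway genes are named if called with a log2 fold change beyond 1 in a pairwise comparison. Gpc4 and Tle1, which passed the interaction test, and Lgr4, Lgr6 and Znrf3 are named outside these rules, after their values were seen. Of the endothelial and keratinocyte markers, 1 of 5 each passed the filter (Cdh5 and Krt10). Cdh5 had at most 3 counts in any control library and a mean of 0.851 CPM with Inf. It was called higher against control with Inf and with IL-4/13 + Inf, while Krt10 was not called in any comparison.

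Lengths, overlaps and shared 50-base stretches came from GENCODE M21 (GRCm38), another build than the authors', and promoters from RefSeq (GRCm38.p6). The stretches shared with other genes were at most 1.137% of a tested member's transcript (Lef1). Axin2, Fzd5, Lef1, Rspo3, Sfrp2 and Wnt5a overlap an opposite-strand gene, whose counts reached at most 13 in any library. Alternatives were DESeq2 1.42.0, scaling by its size factors or by library size, testing without a filter or above a mean of 50 counts, fitting the compared groups alone, blocking on replicate number, leaving out each library, and other thresholds.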

Additional observations from a re-analysis of the deposited data

Results flagged for a closer look

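The response to IL-4/13 differed with Inf present from that without it, by edgeR's interaction test, for 5 of the 63 other pathway genes. That is 7.94%, beside 3.11% of all tested genes. The log2 response with Inf minus that without Inf was 1.30 for Prickle1, 0.45 for Ccnd1, 0.37 for Tle1 and 0.28 for Gpc4, and -0.75 for Ccn5. Among fits that left out 1 library, the call of Gpc4 was lost in 7 and that of Tle1 in 1.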

How the results depend on the processing

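No called difference of a tested member changed direction under any alternative, nor did one of the other pathway genes described, for which the same alternatives were run after the data were seen. The counts of called members moved by over 1.5 times as follows. With DESeq2, members higher were 1 in place of 2 in IL-4/13 against control and 1 in place of 2 in IL-4/13 + Inf against Inf. The fit of only the groups compared gave 1 for the latter. With a filter at a mean of 50 counts, 1 in place of 2 was higher in IL-4/13 + Inf against control and 1 in IL-4/13 + Inf against Inf, and 5 in place of 8 were lower in IL-4/13 + Inf against IL-4/13, in a fit that tested fewer members. At an adjusted p of 0.01, 1 was higher in IL-4/13 against control, 1 was higher in IL-4/13 + Inf against Inf, and 4 were lower in IL-4/13 + Inf against IL-4/13. At a log2 fold change threshold of 0.5 and of 1, higher and lower calls were 1 and 0, then 0 and 0, in IL-4/13 against control, and 1 and 1, then 0 and 0, in IL-4/13 + Inf against Inf. Lower calls at these thresholds were 3 and 2 in Inf against control, 6 and 2 in IL-4/13 + Inf against control, and 5 and 2 in IL-4/13 + Inf against IL-4/13, and 1 higher call remained in Inf against control at the threshold of 1. A higher threshold passes fewer genes by construction, and the cause of the other changes was not tested.

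Leaving out each library in turn gave 1 to 2 higher and 2 to 3 lower in IL-4/13 against control, 3 and 6 to 7 in Inf against control, 2 and 9 to 11 in IL-4/13 + Inf against control, 1 to 2 and 3 to 4 in IL-4/13 + Inf against Inf, 2 to 4 and 5 to 8 in IL-4/13 + Inf against IL-4/13, and 0 in the interaction. The filter was applied again in each of these fits and passed 21 to 23 members, so a member outside the 20 could be called. Where 11 were lower in IL-4/13 + Inf against control, 10 were shared with the main fit. Without Inf replicate 3, Inf against control had 3 higher and 6 lower, and IL-4/13 + Inf against Inf had 1 higher and 4 lower. The higher count in IL-4/13 against control was 1 in 8 of these fits, which lost Sfrp2, and that in IL-4/13 + Inf against Inf was 1 in 6, which lost Rspo3. The lower count in IL-4/13 + Inf against IL-4/13 was 5 without IL-4/13 replicate 1 or without IL-4/13 + Inf replicate 1.

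Samples with the same replicate number did not deviate together: over 18 pairs the correlation of their deviations was -0.146 to 0.0543, none over 0.1, and 0 of 12 libraries correlated best with one of its own number. With the replicate number as a block, 1 in place of 2 was higher in IL-4/13 against control, 1 in place of 2 was higher in IL-4/13 + Inf against Inf, and 7 in place of 8 were lower in IL-4/13 + Inf against IL-4/13, with the other counts as without it.

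The precision is limited by 3 libraries per condition and, for Axin2, Wnt6, Rspo2 and Dkk3, by read counts. The 33 members not tested in the main fit did not pass its filter, and at this depth they had few reads or none.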
